A study of Mus musculus with 8 samples.

Results

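Interferon-stimulated genes are switched on by interferons, the cytokines that cells release when they sense viral or misplaced nucleic acids. The 39 genes described here were a fixed list of mouse symbols, and all 39 were found among the 23146 genes named in the count files. They comprise 5 sensors of nucleic acids, 9 regulators of the interferon pathway and 25 effectors, most of which act against viruses. For 34 members the files held 1 RefSeq transcript, and for the other 5 (Ifih1, Zbp1, Irf7, Irf9 and Mx2) the transcript with the largest total over the 8 libraries stood for the gene. Transcripts were thus selected on a total over all groups, and no contrast between groups entered it, but the list itself was drawn up with results of these libraries known, so the direction of its members is not independent evidence.

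RNA came from epidermis that had been separated from the dermis of mouse embryos at embryonic days E15.5 and E17.5, with 2 libraries in each of 4 groups. Knockout embryos carried floxed Nir alleles and Krt14-Cre, a recombinase expressed in basal keratinocytes under control of the Krt14 promoter. Controls carried the floxed Nir alleles; Nir is Noc2l, which encodes an inhibitor of histone acetylation that also binds p53. The strain, and whether a library is 1 embryo or a pool, are not stated in the labels, so the tests measure the spread between these libraries, which may in part be technical.

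In the classical pathway, type I interferons bind the receptor chains IFNAR1 and IFNAR2, the kinases JAK1 and TYK2 start a phosphorylation cascade, and a complex that holds STAT2 and IRF9 binds interferon-stimulated response elements in promoters. Type III interferons use IFNLR1, found mainly on epithelial cells such as keratinocytes, together with IL10RB, and reach the same complex. Macrophages and other tissue-resident immune cells of the skin express many of these genes even without infection.

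Upstream DNA was read for the 29 members that have 1 or more promoter windows in the RefSeq table (GRCm38.p6; 32 windows in all), each reaching from 250 bases before the start site to 50 after it. The letters GAAANNGAAA, the core repeat of the response element, were searched on both strands, with overlapping matches allowed. They stood in 14 of the 32 member windows (43.8%), against 3.44% of all 32851 windows in the table. Stretches of 6 members whose levels are described below are printed to show the repeat in genes of each response pattern, 5′ to 3′ on the gene's strand, with capitals marking every matched base (GAAANNGAAA, or its complement read on the other strand).
Isg15: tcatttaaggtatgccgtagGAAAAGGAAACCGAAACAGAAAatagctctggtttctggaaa
Ifit1: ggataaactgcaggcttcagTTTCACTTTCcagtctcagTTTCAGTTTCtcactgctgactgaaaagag
Oas1a: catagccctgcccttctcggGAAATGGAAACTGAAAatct
Rsad2: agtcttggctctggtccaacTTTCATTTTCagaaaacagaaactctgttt
Gbp2: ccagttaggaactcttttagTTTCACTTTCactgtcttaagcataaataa
Stat2: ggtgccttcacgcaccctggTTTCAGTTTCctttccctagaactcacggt
The Isg15 stretch lies at chr4:156200855-156200916, minus strand, and holds 3 overlapping matches. The Ifit1 stretch lies at chr19:34640765-34640833, plus strand, and holds 2 separate matches. The Oas1a stretch lies at chr5:120907526-120907565, minus strand, with 2 overlapping matches that reach almost to the start site. The other stretches hold 1 match each, for Rsad2 at chr12:26456543-26456592, minus strand, for Gbp2 at chr3:142620584-142620633, plus strand, and for Stat2 at chr10:128270256-128270305, plus strand. A match is a string of letters and not a measured binding site.

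Gene counts summed to between 25226357 and 28895657 per library, and levels are CPM values on these totals after TMM scaling. Noc2l transcripts stood between 85.4 and 121 CPM in all 8 libraries; the log2 fold change, knockout over control, was -0.12 ± 0.10 at E15.5 and -0.39 ± 0.10 at E17.5 (edgeR adjusted p = 0.33 and 0.0062). Which exons are floxed is not stated, so this level does not check the labels. The 10 keratinocyte markers, which define the labelled tissue, all fell at both stages, from a summed 82736 and 84561 CPM to 5099 and 4824 CPM at E15.5, and from 57543 and 45474 CPM to 2000 and 1696 CPM at E17.5. In controls most of this sum was Krt1 and Krt10, at 39935 and 34164 CPM in E15.5 control replicate 1. The marker that fell least was Itgb4 (log2 -1.30 at E15.5 and -1.26 at E17.5). The knockout libraries therefore hold far less RNA of these markers per total. In these bulk samples fewer cells of a type and less marker RNA per cell cannot be told apart. At E17.5 each group held 1 library of female type and 1 of male type by Xist and Y-linked counts, while all 4 libraries at E15.5 were of male type. The male-type E17.5 knockout replicate 2 had Xist at 29.3 CPM beside 128 CPM of summed Y-linked genes. Other male-type libraries had Xist between 0.04 and 1.69 CPM. The source of this difference was not tested.

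Interferon-stimulated genes were higher in knockout epidermis at both stages. At E15.5, 35 of the 39 rose and 0 fell (edgeR quasi-likelihood test, Benjamini-Hochberg adjusted p under 0.05), against 23.2% of all 16342 genes tested that rose and 22.3% that fell. At E17.5, all 39 rose and 0 fell, against 26.7% of all genes in each direction. The counts of 0 fallen members were also 0 at an unadjusted p under 0.05, and with DESeq2 and limma-voom. The 35 that rose at E15.5 all rose at E17.5, and 19.5% of all genes rose at both stages. The median member had a log2 fold change of 1.34 at E15.5 and 2.07 at E17.5, whereas the median of all genes was -0.00 and -0.02. At least a doubling, with a call, was seen for 24 members at E15.5 and 37 at E17.5, against 8.77% and 13.4% of all genes. At least a 4-fold rise was seen for 9 and 24, against 1.84% and 3.4% of all genes.

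**Figure D1:**
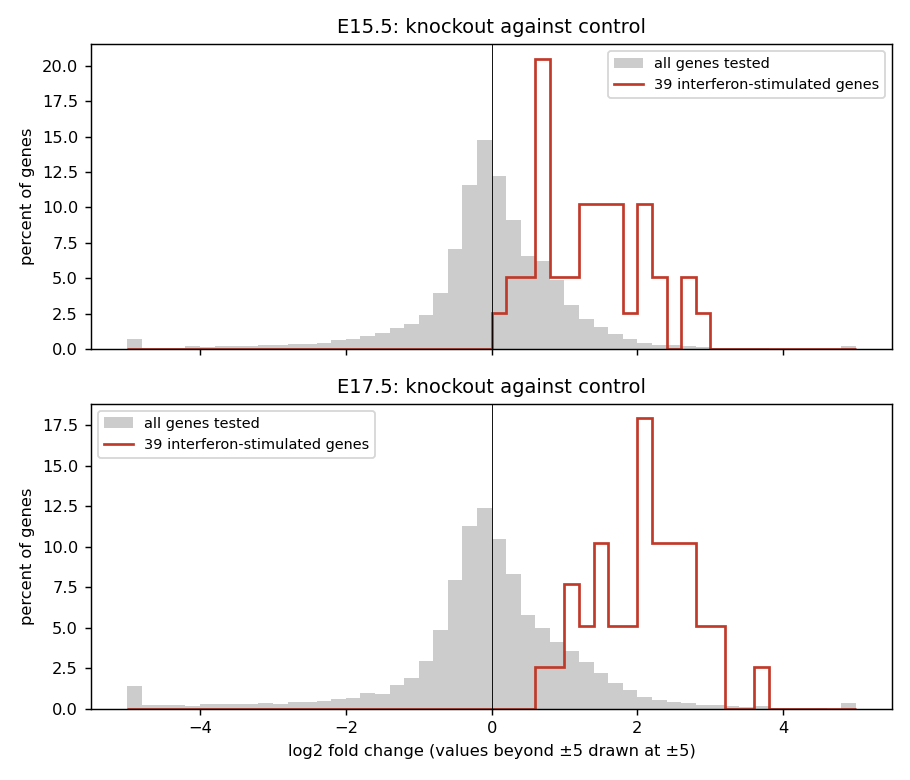
Share of genes (percent, vertical) in bins of the log2 fold change of knockout over control (horizontal), for all 16342 genes tested (grey) and the 39 interferon-stimulated genes (red outline), at E15.5 and E17.5. All 39 members lie above 0 at both stages, with medians of 1.34 and 2.07, while the medians of all genes lie near 0.

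Both knockout libraries lay above both control libraries for 37 members at E15.5 (37.1% of all genes did so, and 37.3% lay below) and for 39 at E17.5 (38.4%, with 39.7% below). The exceptions at E15.5 were Mx1 and Ifi44. Summed over the members, levels were 321 and 319 CPM in E15.5 controls, 675 and 749 in E15.5 knockouts, 372 and 431 in E17.5 controls, and 1341 and 1645 in E17.5 knockouts. The sum was 2.22-fold higher in knockouts at E15.5 and 3.72-fold higher at E17.5. For 33 members the 4 group means stood in the same order, with E15.5 control lowest, then E17.5 control, E15.5 knockout and E17.5 knockout. Trim25, Dtx3l, Ifit2, Mx1 and Ifitm3 had their lowest mean in E17.5 controls, and Ifi44 was the 1 member whose E17.5 control mean exceeded its E15.5 knockout mean. Every member had its highest mean in E17.5 knockouts.

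Leaving out 1 of the E15.5 libraries ended some of the E15.5 calls. Without control replicate 1, 32 members rose, and Tlr3, Irf9 and Isg15 did not pass. Without control replicate 2, 29 rose, and Dhx58, Tlr3, Oas3, Herc6, Gbp2 and Gbp3 did not pass. Without knockout replicate 2, 29 rose, and Tlr3, Oas3, Ifit2, Isg15, Mx2 and Gbp2 did not pass. Without knockout replicate 1, Dhx58 did not pass and Ifi44 did. Every other E15.5 call held in these 4 fits, and at E17.5 only the call of Tlr3 was lost in any fit without 1 library.

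**Figure D2:**
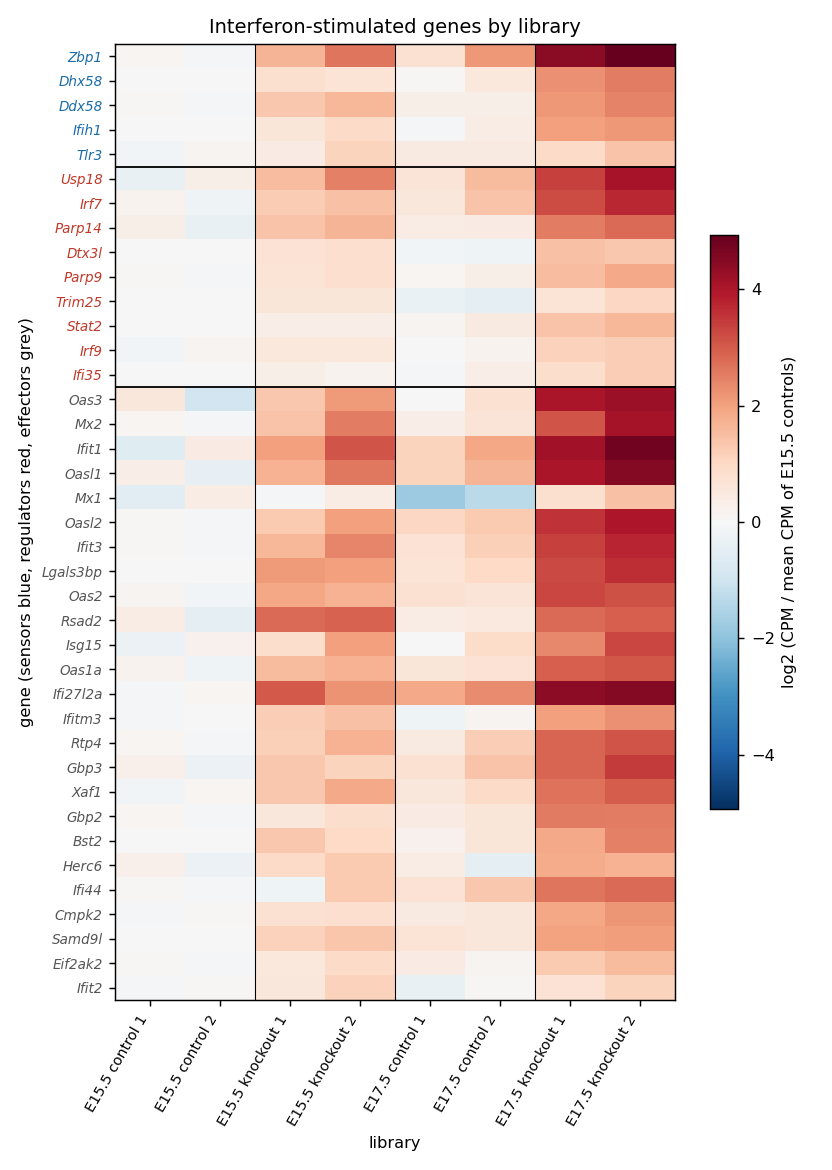
Level of each of the 39 members (vertical, by role and then by E17.5 fold change) in each of the 8 libraries (horizontal), as log2 of CPM over the mean CPM of the E15.5 controls, on a scale centred at 0. The 2 E17.5 knockout libraries are the deepest red in nearly all genes, and Mx1 is the member with clearly blue E17.5 controls, at 0.797 and 1.12 CPM.

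The levels of markers of other cell types moved with the genotype as well. For scale, 23.2% of all genes rose and 22.3% fell at E15.5, and 26.7% moved in each direction at E17.5. Of 14 listed markers of macrophages and Langerhans cells, 12 were tested and all 12 rose at both stages, with median log2 fold changes of 1.15 and 1.97. Their summed level was 438 and 430 CPM in E15.5 controls, 987 and 955 in E15.5 knockouts, 475 and 469 in E17.5 controls, and 1849 and 1619 in E17.5 knockouts. These sums rose 2.24-fold at E15.5 and 3.67-fold at E17.5, sizes close to those of the interferon-stimulated genes. Cd207, a listed marker of Langerhans cells, had 0 counts in all 8 libraries. Siglech, a listed marker of plasmacytoid dendritic cells, had between 4 and 19 counts. A single marker does not tell whether cells of either lineage were present at these stages. Dermal fibroblast markers (10 of 10 at both stages, medians 1.38 and 1.57) and endothelial markers (10 of 10, medians 0.62 and 0.80) rose too. Fibroblast sums rose 2.66-fold and 3.42-fold, beside 2.22-fold and 3.72-fold for the interferon-stimulated genes, and endothelial sums 1.62-fold and 1.79-fold. Mean fibroblast sums were 33987 CPM in E15.5 controls, 90439 in E15.5 knockouts, 30910 in E17.5 controls and 105693 in E17.5 knockouts. Erythroid markers had the largest rise in sum of these lists, 6.38-fold at E15.5 and 10.9-fold at E17.5. Of 8 erythroid markers, 6 rose and 1 fell at E15.5, and 5 rose and 1 fell at E17.5. Their sums differed widely between the E15.5 knockout libraries, at 46109 and 24959 CPM, beside 6579 and 4564 in E15.5 controls. Of 7 tested neutrophil and mast cell markers, 4 rose at E15.5, and 5 rose and 1 fell at E17.5 (sums 1.78-fold and 2.10-fold). T and B cell markers summed to 0.69 and 0.56 of the control level, which was only 12.4 CPM at E15.5 and 13.0 at E17.5. Of 6 tested, 1 rose and 2 fell at E15.5, and 0 rose and 2 fell at E17.5. Of 5 tested plasmacytoid dendritic cell markers, 2 rose and 1 fell at each stage. Their sums stood at 0.54 and 0.79 of the control level, but in controls they were mostly Ly6d, the marker that fell (log2 -2.07 and -2.94). Ly6d stood at 385 and 348 CPM in E15.5 controls and at 71.2 and 103 in E15.5 knockouts. Nearly all the rest was Cox6a2, at 111 and 99.1 CPM in E15.5 controls and 172 and 159 in E15.5 knockouts. Siglech, Ccr9, Klk1 and Pacsin1 stood at 3.55 CPM or less in every library. The sums were thus set by Ly6d and Cox6a2, and cannot stand for the amount of these cells. Melanocyte marker sums rose 2.07-fold and 1.31-fold. All 6 melanocyte markers rose at E15.5, but only 2 at E17.5, and 4 passed the test of the difference between stages downward. The part of these cells in the result was not tested.

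**Figure D3:**
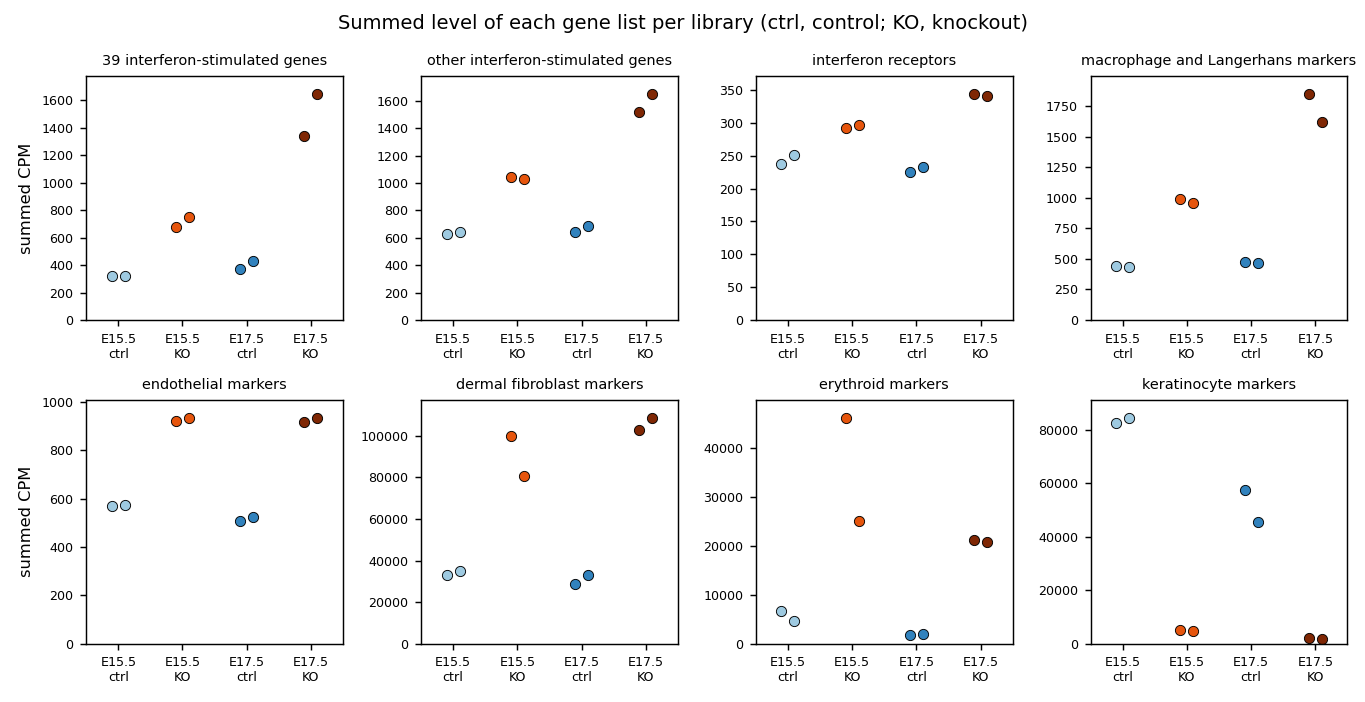
Summed CPM (vertical, linear from 0) of 8 gene lists in each library (points) by group (horizontal; ctrl, control; KO, knockout). The 39 interferon-stimulated genes and the macrophage and Langerhans markers are high in both E17.5 knockout libraries, at 1341 and 1645 CPM and at 1849 and 1619 CPM, and keratinocyte markers are low in every knockout library.

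The 5 sensors all rose at both stages, as did 19.5% of all genes. Their median log2 fold change was 0.79 at E15.5 and 2.01 at E17.5. Ddx58 encodes RIG-I, a helicase that senses viral RNA ends, and it was the sensor with the highest level per length. It stood at 14.5 and 13.5 CPM in E15.5 controls, 35.1 and 43.7 in E15.5 knockouts, 17.1 and 16.9 in E17.5 controls, and 61.8 and 75.5 in E17.5 knockouts. The knockout libraries were higher with no overlap at either stage, by log2 1.49 ± 0.14 at E15.5 and 2.01 ± 0.14 at E17.5 (edgeR adjusted p = 8.6e-06 and 5.2e-07). Ifih1 encodes MDA5, a helicase for long double-stranded RNA, and stood at 7.51 and 7.68 CPM in E15.5 controls, 11.6 and 14.5 in E15.5 knockouts, 7.39 and 9.82 in E17.5 controls, and 30.6 and 33.6 in E17.5 knockouts. Its rise grew from log2 0.78 ± 0.17 at E15.5 to 1.90 ± 0.17 at E17.5, while its stage difference in controls was 0.18 and did not pass. Dhx58 encodes LGP2, a helper of the other helicases that lacks their signalling domain, and stood at 3.81 and 3.69 CPM in E15.5 controls, 6.55 and 6.05 in E15.5 knockouts, 3.95 and 5.39 in E17.5 controls, and 17.8 and 21.6 in E17.5 knockouts. Dhx58 rose 1.68-fold at E15.5 and 4.20-fold at E17.5.

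Zbp1, a sensor of Z-form nucleic acids that can start cell death, was the most responsive sensor. It had only 14 and 12 counts in E15.5 controls, and stood at 0.528 and 0.461 CPM in E15.5 controls, 1.59 and 3.10 in E15.5 knockouts, 0.834 and 2.15 in E17.5 controls, and 10.9 and 15.1 in E17.5 knockouts. Zbp1 rose 4.72-fold at E15.5 and 8.59-fold at E17.5, and its control libraries at E17.5 differed 2.58-fold from each other. Tlr3, the endosomal receptor for double-stranded RNA, stood at 2.94 and 3.57 CPM in E15.5 controls, 4.26 and 7.04 in E15.5 knockouts, 4.46 and 4.43 in E17.5 controls, and 6.32 and 8.59 in E17.5 knockouts. It had the smallest E17.5 change of all members (log2 0.75 ± 0.26, edgeR adjusted p = 0.032) and about the same at E15.5 (0.79 ± 0.27, adjusted p = 0.034). Both Tlr3 calls were fragile: the change was 0.38 at E15.5 without E15.5 knockout replicate 2 and 0.49 at E17.5 without E17.5 knockout replicate 2, and neither then passed. The E17.5 call was also lost without either E17.5 control.

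Of the 9 regulators, 7 rose at E15.5 and all 9 at E17.5 (23.2% and 26.7% of all genes), with medians of 0.76 and 1.49. Irf7, the transcription factor that amplifies interferon production, stood at 4.38 and 3.38 CPM in E15.5 controls, 9.22 and 10.6 in E15.5 knockouts, 5.76 and 10.2 in E17.5 controls, and 36.4 and 50.7 in E17.5 knockouts. Both knockout libraries were higher at each stage, and Irf7 had the second largest E17.5 rise among regulators (log2 1.35 ± 0.27, then 2.44 ± 0.25). The largest was that of Usp18, which removes ISG15 from proteins and shuts down receptor signalling. Usp18 stood at 0.717 and 1.11 CPM in E15.5 controls, 2.63 and 5.14 in E15.5 knockouts, 1.41 and 2.73 in E17.5 controls, and 9.49 and 15.45 in E17.5 knockouts, a log2 fold change of 2.08 ± 0.45 at E15.5 and 2.58 ± 0.39 at E17.5.

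Stat2 and Irf9, whose proteins are parts of the response complex, moved less. Stat2 stood at 25.5 and 25.8 CPM in E15.5 controls, 31.9 and 32.3 in E15.5 knockouts, 28.4 and 35.2 in E17.5 controls, and 68.1 and 80.2 in E17.5 knockouts. Its E15.5 libraries did not overlap, but the change was small and did not pass the test (log2 0.32 ± 0.13, edgeR adjusted p = 0.063); it passed (adjusted p = 0.037) when only the 4 E15.5 libraries were fitted. At E17.5 Stat2 more than doubled (log2 1.22 ± 0.13, adjusted p = 1.2e-05). Irf9, the DNA-binding partner, stood at 18.5 and 22.0 CPM in E15.5 controls, 28.8 and 29.2 in E15.5 knockouts, 20.5 and 22.6 in E17.5 controls, and 45.02 and 47.3 in E17.5 knockouts. It rose 1.43-fold and 2.14-fold. Irf9 shares 123 exonic bases with its neighbour Rnf31 on the same strand.

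Trim25, a ubiquitin ligase that activates RIG-I, stood at 39.4 and 40.5 CPM in E15.5 controls, 60.2 and 60.5 in E15.5 knockouts, 31.6 and 29.5 in E17.5 controls, and 63.9 and 80.2 in E17.5 knockouts. It had the highest level of all members in E15.5 controls before correction for length, and rose by log2 0.60 ± 0.12 and 1.24 ± 0.12. Ifi35, a small interferon-induced protein, was the regulator with the highest level per length in controls of both stages, at 10.4 and 10.49 CPM in E15.5 controls, 12.6 and 11.8 in E15.5 knockouts, 10.04 and 13.3 in E17.5 controls, and 18.9 and 24.3 in E17.5 knockouts. Its E15.5 values were barely apart, and it did not pass the test there (0.22 ± 0.18, edgeR adjusted p = 0.33), whereas at E17.5 it rose by 0.89 ± 0.17.

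Parp9 and Dtx3l, which form an ADP-ribosylation and ubiquitin ligase complex, overlap on chromosome 16 and share 367 exonic bases on opposite strands, so without a stated strand setting their reads cannot be fully separated. Parp9 stood at 11.0 and 10.3 CPM in E15.5 controls, 17.03 and 19.2 in E15.5 knockouts, 11.4 and 13.2 in E17.5 controls, and 30.3 and 38.7 in E17.5 knockouts. Dtx3l stood at 11.4 and 11.98 CPM in E15.5 controls, 19.0 and 20.8 in E15.5 knockouts, 10.7 and 10.1 in E17.5 controls, and 31.9 and 29.8 in E17.5 knockouts. Both rose by log2 0.76 at E15.5 and by 1.49 and 1.57 at E17.5. Their neighbour Parp14, a related ADP-ribosyltransferase, stood at 13.9 and 8.95 CPM in E15.5 controls, 30.2 and 36.7 in E15.5 knockouts, 14.8 and 15.2 in E17.5 controls, and 65.6 and 79.5 in E17.5 knockouts. It rose more than either, by 1.55 ± 0.19 and 2.27 ± 0.19.

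Of the 25 effectors, 23 rose at E15.5 and all 25 at E17.5 (23.2% and 26.7% of all genes). Their medians of 1.55 and 2.34 were the largest of the 3 roles at both stages. The oligoadenylate synthetases make the second messenger that activates RNase L. Oas1a stood at 1.85 and 1.42 CPM in E15.5 controls, 4.81 and 5.31 in E15.5 knockouts, 2.50 and 2.66 in E17.5 controls, and 12.8 and 13.7 in E17.5 knockouts. Oas2 stood at 4.42 and 3.61 CPM in E15.5 controls, 15.2 and 13.1 in E15.5 knockouts, 6.67 and 6.23 in E17.5 controls, and 39.3 and 35.2 in E17.5 knockouts. Both had tight replicates and clearly separated groups, with rises of 1.63 ± 0.22 and 2.36 ± 0.20 for Oas1a and 1.82 ± 0.16 and 2.53 ± 0.15 for Oas2. Oas3 had the largest E17.5 rise of any member (3.69 ± 0.40, 12.9-fold, edgeR adjusted p = 1.6e-05), from 0.868 and 0.307 CPM in E15.5 controls, 1.48 and 2.53 in E15.5 knockouts, 0.580 and 0.995 in E17.5 controls, and 9.49 and 11.1 in E17.5 knockouts. It was also the member with the lowest level per length in every group but E17.5 knockouts, and its E15.5 controls, with 23 and 8 counts, differed 2.83-fold, so its E15.5 change of 1.76 ± 0.45 became 2.69 without E15.5 control replicate 1. Oas1a belongs to a family of close copies, among which reads can be hard to place.

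The synthetase-like genes followed. Oasl1, which restrains translation of Irf7 messenger RNA, stood at 0.755 and 0.461 CPM in E15.5 controls, 2.00 and 3.69 in E15.5 knockouts, 1.305 and 1.93 in E17.5 controls, and 10.004 and 14.0 in E17.5 knockouts. Oasl2 stood at 4.30 and 3.92 CPM in E15.5 controls, 9.96 and 16.6 in E15.5 knockouts, 8.30 and 10.1 in E17.5 controls, and 49.1 and 66.0 in E17.5 knockouts. The groups did not overlap at either stage, and the log2 rises were 2.22 and 2.88 for Oasl1 and 1.69 and 2.64 for Oasl2. Eif2ak2, encoding PKR, the kinase that halts translation on double-stranded RNA, was abundant but moved less, at 19.9 and 18.0 CPM in E15.5 controls, 27.2 and 36.2 in E15.5 knockouts, 25.3 and 20.7 in E17.5 controls, and 46.2 and 56.6 in E17.5 knockouts. Its log2 rises were 0.74 ± 0.17 and 1.16 ± 0.16.

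The IFIT proteins bind viral RNA and block its translation, and the genes of 3 of them lie close together on chromosome 19. Ifit1 stood at 0.604 and 1.23 CPM in E15.5 controls, 3.70 and 7.92 in E15.5 knockouts, 1.96 and 3.47 in E17.5 controls, and 16.1 and 24.7 in E17.5 knockouts. Ifit3 stood at 1.89 and 1.73 CPM in E15.5 controls, 5.63 and 9.64 in E15.5 knockouts, 2.94 and 4.05 in E17.5 controls, and 18.6 and 24.7 in E17.5 knockouts. These 2 rose strongly at both stages, by log2 2.66 ± 0.46 and 2.90 ± 0.39 for Ifit1 and 2.08 ± 0.30 and 2.63 ± 0.27 for Ifit3. Ifit2, far more abundant in controls, stood at 16.7 and 18.2 CPM in E15.5 controls, 25.4 and 38.1 in E15.5 knockouts, 13.7 and 18.1 in E17.5 controls, and 28.7 and 37.7 in E17.5 knockouts. It rose only 1.82-fold and 2.09-fold, and its E15.5 change was 0.54 and no longer called without E15.5 knockout replicate 2. Ifit3 has a near-identical copy, Ifit3b, so its reads may be shared with it.

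Isg15, a ubiquitin-like protein that is attached to viral and host proteins, stood at 1.25 and 1.77 CPM in E15.5 controls, 2.74 and 6.05 in E15.5 knockouts, 1.52 and 2.83 in E17.5 controls, and 7.85 and 14.9 in E17.5 knockouts. Replicates of a group lay far apart, and the rises of 1.55 ± 0.46 and 2.38 ± 0.43 carried wide errors. Its E15.5 change was 0.86 and not called without E15.5 knockout replicate 2, nor was it called with limma-voom (adjusted p = 0.063). Herc6, the mouse ligase that attaches ISG15 to targets, stood at 3.74 and 2.61 CPM in E15.5 controls, 6.11 and 7.85 in E15.5 knockouts, 4.06 and 2.34 in E17.5 controls, and 11.3 and 10.53 in E17.5 knockouts. Herc6 rose by 1.13 ± 0.28 and 1.78 ± 0.27, but shares 1269 exonic bases with the predicted gene Gm45193 on its own strand.

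The Mx genes encode dynamin-like GTPases that trap viral particles, and the pair differed at E15.5. Mx2 stood at 0.491 and 0.422 CPM in E15.5 controls, 1.22 and 2.60 in E15.5 knockouts, 0.580 and 0.706 in E17.5 controls, and 3.94 and 7.87 in E17.5 knockouts. It rose 4.17-fold at E15.5 and 9.10-fold at E17.5 from very low control levels. Mx1, whose only transcript in the files is annotated as non-coding in RefSeq, stood at 1.96 and 3.61 CPM in E15.5 controls, 2.66 and 3.55 in E15.5 knockouts, 0.797 and 1.12 in E17.5 controls, and 4.78 and 7.65 in E17.5 knockouts. Its groups overlapped at E15.5 (0.16 ± 0.35, edgeR adjusted p = 0.74), while at E17.5 it rose 6.42-fold, against controls that had dropped below their E15.5 level.

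Guanylate-binding proteins attack membranes around intracellular pathogens. Gbp2 stood at 2.42 and 2.15 CPM in E15.5 controls, 3.37 and 4.12 in E15.5 knockouts, 3.01 and 3.499 in E17.5 controls, and 13.6 and 13.2 in E17.5 knockouts. Gbp3, its neighbour on chromosome 3, stood at 2.53 and 1.73 CPM in E15.5 controls, 5.37 and 4.61 in E15.5 knockouts, 3.59 and 5.59 in E17.5 controls, and 15.8 and 23.0 in E17.5 knockouts. Gbp2 rose weakly at E15.5 (0.71 ± 0.22) and more at E17.5 (2.04 ± 0.20), and Gbp3 rose at both (1.22 ± 0.29 and 2.07 ± 0.26). The E15.5 call of Gbp2 was lost in a fit of the 4 E15.5 libraries alone (adjusted p = 0.058).

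Rsad2, encoding viperin, which makes a chain-terminating nucleotide, had the largest E15.5 rise of all members (2.85 ± 0.21, 7.21-fold, edgeR adjusted p = 1.2e-06). It stood at 4.91 and 2.80 CPM in E15.5 controls, 26.9 and 28.8 in E15.5 knockouts, 5.002 and 5.39 in E17.5 controls, and 26.8 and 29.4 in E17.5 knockouts. The 4 knockout libraries lay within a narrow range, and its E17.5 rise was 2.43 ± 0.20. Cmpk2, a nucleotide kinase gene next to Rsad2 on chromosome 12, stood at 4.04 and 4.46 CPM in E15.5 controls, 7.18 and 7.63 in E15.5 knockouts, 5.73 and 6.23 in E17.5 controls, and 16.0 and 19.0 in E17.5 knockouts. Unlike its neighbour it rose little at E15.5 (0.80 ± 0.18) and more at E17.5 (1.55 ± 0.17).

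Among membrane proteins, Bst2 encodes tetherin, which holds budding virus on the cell, and stood at 19.0 and 19.9 CPM in E15.5 controls, 49.2 and 38.6 in E15.5 knockouts, 22.3 and 29.2 in E17.5 controls, and 71.0 and 109.7 in E17.5 knockouts. Ifitm3, which blocks viral fusion in endosomes, had the highest level per length of all members in every group but E17.5 knockouts, at 25.3 and 26.7 CPM in E15.5 controls, 59.96 and 71.3 in E15.5 knockouts, 22.4 and 28.8 in E17.5 controls, and 105 and 123 in E17.5 knockouts. Both rose at each stage, Bst2 by 1.17 ± 0.20 and 1.81 ± 0.20 and Ifitm3 by 1.34 ± 0.14 and 2.16 ± 0.14. Ifi27l2a, a small mitochondrial protein gene, stood at 3.47 and 3.99 CPM in E15.5 controls, 30.5 and 17.3 in E15.5 knockouts, 13.8 and 18.7 in E17.5 controls, and 78.5 and 86.2 in E17.5 knockouts. Its control level climbed more than 4-fold between stages, and the knockout rise was 2.68 ± 0.26 at E15.5 and 2.34 ± 0.23 at E17.5.

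Lgals3bp, a secreted galectin-binding glycoprotein, reached the highest CPM of all members in E17.5 knockouts and had the smallest adjusted p there (5.8e-08, edgeR). It stood at 16.2 and 16.6 CPM in E15.5 controls, 70.3 and 66.2 in E15.5 knockouts, 26.2 and 32.1 in E17.5 controls, and 157 and 202 in E17.5 knockouts. The rises were 2.06 ± 0.14 and 2.62 ± 0.14, with replicates close together at E15.5 and further apart at E17.5. Samd9l, an antiviral factor that limits protein synthesis, stood at 12.4 and 12.4 CPM in E15.5 controls, 27.0 and 31.9 in E15.5 knockouts, 19.8 and 18.0 in E17.5 controls, and 49.0 and 51.6 in E17.5 knockouts. It rose by similar amounts at both stages, 1.25 ± 0.13 and 1.41 ± 0.12.

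Of the other effectors, Xaf1, a promoter of apoptosis, stood at 2.34 and 2.77 CPM in E15.5 controls, 6.37 and 9.36 in E15.5 knockouts, 3.81 and 4.94 in E17.5 controls, and 16.2 and 20.1 in E17.5 knockouts. Rtp4, a receptor-transporting protein, stood at 3.81 and 3.30 CPM in E15.5 controls, 8.11 and 11.5 in E15.5 knockouts, 4.86 and 8.15 in E17.5 controls, and 26.1 and 30.9 in E17.5 knockouts. Both rose at each stage, Xaf1 by 1.62 and 2.05 and Rtp4 by 1.46 and 2.12. Ifi44 stood at 1.77 and 1.61 CPM in E15.5 controls, 1.48 and 4.15 in E15.5 knockouts, 2.79 and 4.24 in E17.5 controls, and 10.6 and 11.8 in E17.5 knockouts. One E15.5 knockout library was below both controls and the other far above, so Ifi44 did not pass at E15.5 (0.74 ± 0.41, edgeR adjusted p = 0.17); without E15.5 knockout replicate 1 it passed at 1.29, and without replicate 2 it was -0.20. At E17.5 its libraries were well apart and it rose by 1.66 ± 0.36.

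**Figure D4:**
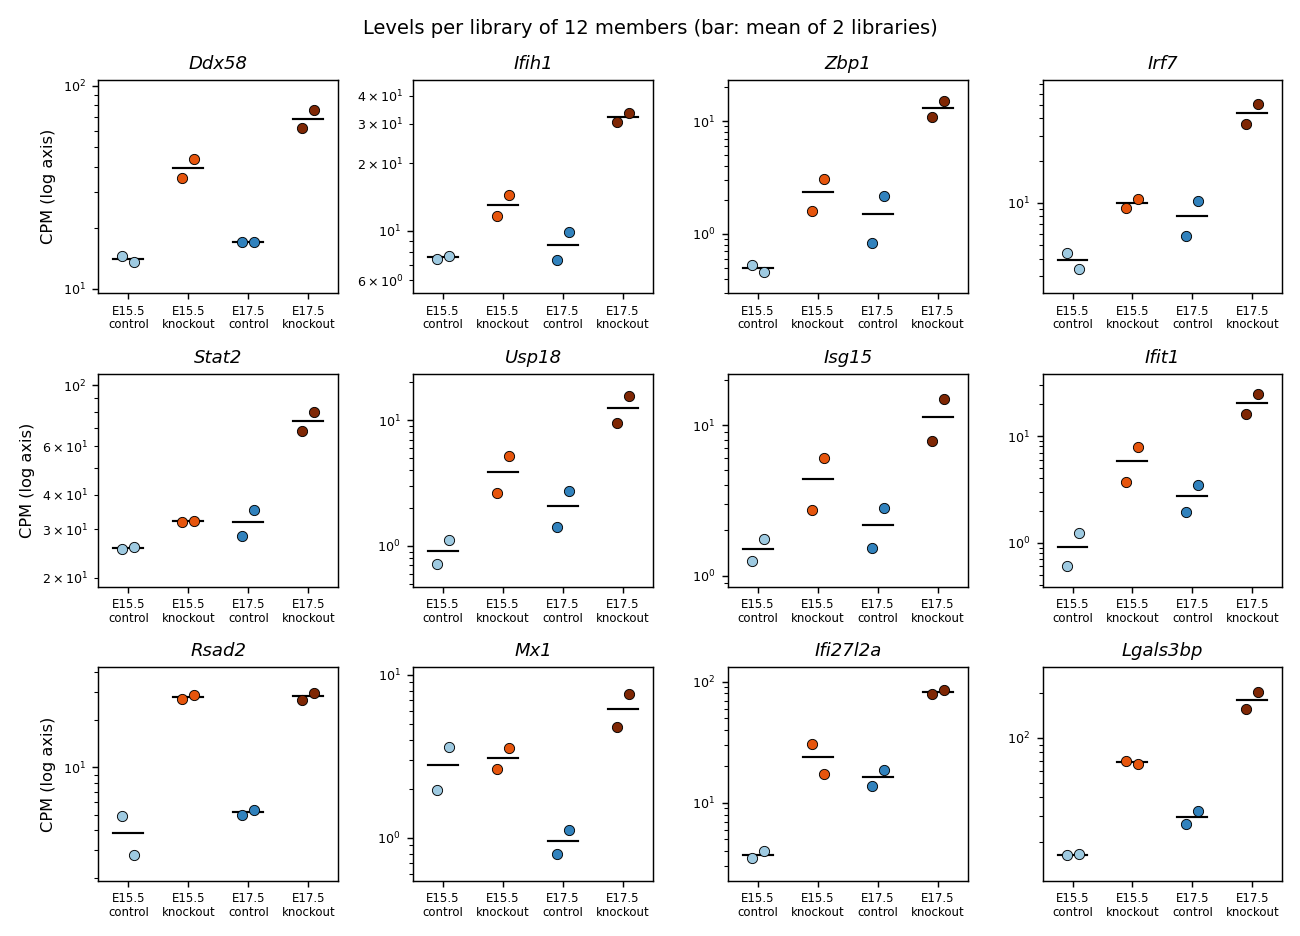
Levels (CPM, log axis; axes differ between panels) of 12 members in each library (points) by group (horizontal), with the mean of the 2 libraries as a bar. Rsad2 is equally high in both knockout groups (26.9, 28.8, 26.8 and 29.4 CPM), Mx1 separates from controls at E17.5 but not at E15.5, and of these 12 Zbp1 and Irf7 climb most (log2 2.47 and 2.14) between the knockout stages.

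The change in effect between stages was tested directly, as E17.5 minus E15.5 of the log2 fold changes. It was above 0 for 36 of 39 members (50.8% of all genes) with a median of 0.71, and 7 members passed the test upward and 0 downward, against 1.88% and 2.47% of all genes. The count of 0 was also 0 at an unadjusted p under 0.05 and with DESeq2 and limma-voom. The 7 were Mx1 (2.52 ± 0.52), Dhx58 (1.32 ± 0.28), Gbp2 (1.32 ± 0.29), Ifih1 (1.12 ± 0.24), Stat2 (0.90 ± 0.18), Ifitm3 (0.82 ± 0.20) and Dtx3l (0.81 ± 0.18), with edgeR adjusted p between 0.017 and 0.042. Tlr3 (-0.05 ± 0.38), Ifi27l2a (-0.34 ± 0.34) and Rsad2 (-0.42 ± 0.29) were the 3 members below 0, and none of them passed.

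By role, 2 of 5 sensors, 2 of 9 regulators and 3 of 25 effectors passed upward, against 1.88% of all genes. These calls depended on single libraries, and each was lost in 1 or more of the 8 fits that left out 1 library. All were lost without E15.5 control replicate 2, and again without E17.5 knockout replicate 2. The smallest difference of any of these members in those fits was 0.65, for Ifitm3 without E17.5 control replicate 1. Some of the fits called members that had not passed with all libraries, namely Irf7, Trim25, Parp14 and Oasl2. With library totals in place of TMM, which shifted the median of all genes by -0.21, 2 members passed and the members' median was 0.50.

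**Figure D5:**
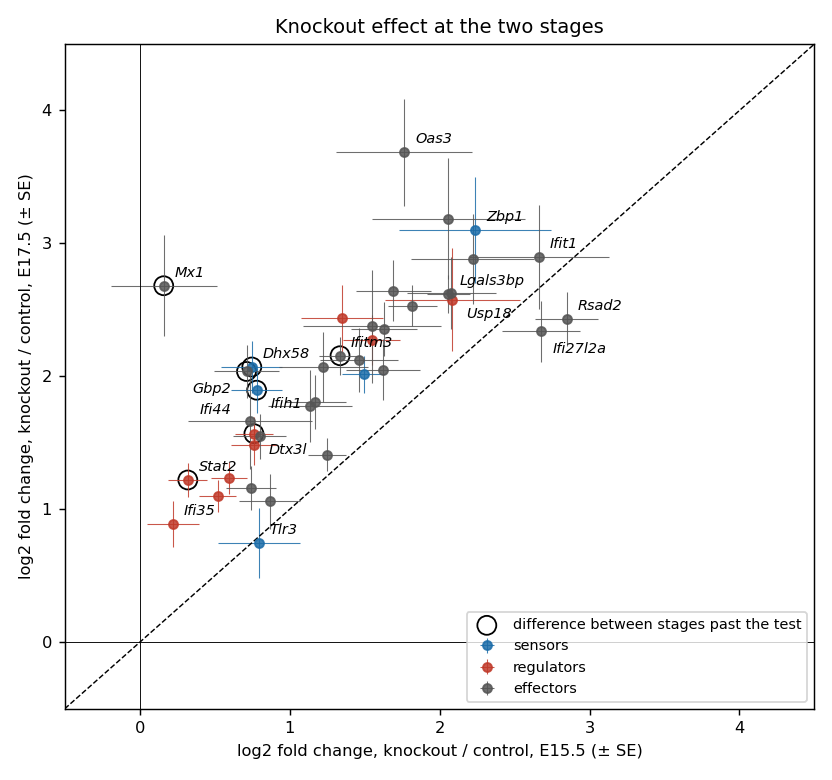
Log2 fold change of knockout over control at E15.5 (horizontal) against E17.5 (vertical) for the 39 members, coloured by role, with standard errors as bars; the dashed line marks equal effects. Points above the line have a larger effect at E17.5 (36 of 39), and circles mark the 7 members whose difference between stages passed the test.

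In control epidermis, 7 members rose from E15.5 to E17.5 and 1 fell, against 3.15% and 7.7% of all genes. Ifi27l2a rose most (2.12 ± 0.26, edgeR adjusted p = 0.00067), followed by Oasl2 (1.16 ± 0.25), Gbp3 (1.11 ± 0.30), Irf7 (1.05 ± 0.27), Lgals3bp (0.83 ± 0.14), Oas2 (0.68 ± 0.17) and Samd9l (0.61 ± 0.13). Mx1 fell (-1.52 ± 0.39, adjusted p = 0.03). Libraries of both stages did not overlap for 28 members higher at E17.5 (23.5% of all genes) and for 3 lower (27.3%). The median member changed by 0.49. The 7 risen members became 16 with library totals, 14 with a replicate block, 13 with no filter on low counts, 11 with DESeq2 and 4 with limma-voom. The count also moved with the library left out, with 2 members up without E15.5 control replicate 2, 3 without E17.5 control replicate 2, 12 and 13 without E15.5 knockout replicates 2 and 1, and between 5 and 9 otherwise; with a term for sex 4 rose and Mx1 did not pass (adjusted p = 0.12).

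In knockout epidermis, 33 members rose from E15.5 to E17.5 and 0 fell, against 6.19% and 6.91% of all genes, with 0 fallen at an unadjusted p under 0.05 and with DESeq2 and limma-voom. The median was 1.299, and libraries of the stages did not overlap for 36 members, all higher at E17.5 (27.3% of all genes, with 28.9% lower). Zbp1 (2.47 ± 0.38), Oas3 (2.35 ± 0.36) and Irf7 (2.14 ± 0.25) rose most. The 6 that did not pass were Herc6 (0.65 ± 0.26), Mx1 (0.998 ± 0.34, adjusted p = 0.08), Tlr3 (0.40 ± 0.26), Trim25 (0.25 ± 0.12), Ifit2 (0.06 ± 0.20) and Rsad2 (0.01 ± 0.18). The stage comparisons and the knockout comparisons share libraries, so these values are not separate evidence.

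Levels between genes were compared per kilobase of transcript. Ifitm3 led in E15.5 controls at 38.3 CPM per kilobase, followed by Bst2 at 24.6; Ifi27l2a stood at 8.06, Ddx58 at 3.61 and Oas3, the lowest, at 0.125. In E17.5 knockouts Ifi27l2a (178) and Ifitm3 (169) were highest and within each other's spread, then came Bst2 (114) and Lgals3bp (77.0), and Tlr3 was lowest at 1.69. Members also moved together between replicates. Replicate 2 was the higher library for 32 members in E15.5 knockouts, 31 in E17.5 controls and 35 in E17.5 knockouts, against 49.9%, 50.9% and 48.7% of all genes, with median log2 ratios of 0.29, 0.36 and 0.29; in E15.5 controls it was higher for 19. The members share this spread, so their counts are not 39 separate observations.

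Interferon transcripts were hardly detected. None of the 11 ligand genes listed passed the filter on low counts, and 7 (Ifna1, Ifna2, Ifna4, Ifna5, Ifne, Ifnl2 and Ifnl3) had 0 counts in all 8 libraries, which allows up to 3 counts, or 0.0963 to 0.115 CPM, in each (counting error only). Ifnk and Ifne are the interferons best known from epithelia. Ifnb1 had 2 counts in all, both in E17.5 knockout replicate 1, Ifng had 2, Ifnk 6, and Ifnz, an interferon zeta gene with near-identical copies, 49.

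Of 6 interferon receptor genes, 3 rose and 1 fell at E15.5, and 5 rose and 1 fell at E17.5. Among all genes 23.2% rose and 22.3% fell at E15.5, and 26.7% moved in each direction at E17.5. Ifnar1, the first chain of the type I receptor, stood at 74.8 and 80.0 CPM in E15.5 controls, 98.3 and 100.4 in E15.5 knockouts, 77.4 and 72.6 in E17.5 controls, and 107 and 103 in E17.5 knockouts, a rise of 0.36 ± 0.09 and 0.49 ± 0.09. Ifnar2 rose by 0.64 ± 0.14 and 0.95 ± 0.14, and Il10rb, the shared chain of the type III receptor, by 0.45 ± 0.11 and 0.95 ± 0.11. Ifnlr1, the specific chain of the type III receptor, fell with no overlap, from 10.6 and 9.41 CPM in E15.5 controls, 1.22 and 1.65 in E15.5 knockouts, 9.02 and 9.79 in E17.5 controls, and 0.803 and 0.755 in E17.5 knockouts. Its log2 fold changes were -2.79 ± 0.23 and -3.59 ± 0.24 (edgeR adjusted p = 2.5e-06 and 4e-07), the opposite direction to every member and the same as the keratinocyte markers. Ifngr1, of the type II receptor, did not pass at E15.5 (0.30 ± 0.12) and rose at E17.5 (0.85 ± 0.12). Leaving out control replicate 1 of E15.5 ended the Ifnar1 call there (adjusted p = 0.059), and leaving out control replicate 2 brought Ifngr1 past the test (0.44, adjusted p = 0.035).

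Of 9 other signalling genes, 5 rose and 1 fell at E15.5, and 7 rose and 0 fell at E17.5, with 0 fallen there at an unadjusted p under 0.05. The shares of all genes were 23.2% up and 22.3% down at E15.5, and 26.7% in each direction at E17.5. Irf1, an early response factor, rose by 1.54 ± 0.21 and 1.65 ± 0.20, and Irf8, a factor of macrophages and dendritic cells, by 1.37 ± 0.20 and 1.76 ± 0.19. Jak2 rose by 0.54 ± 0.11 and 0.40 ± 0.11, but with library totals in place of TMM its E17.5 change was 0.19 and did not pass. Irf3, which switches on interferon genes and is named here after its values were seen, was the 1 that fell, at E15.5 (-0.27 ± 0.10, adjusted p = 0.049); that call was lost without any 1 of the 8 libraries (adjusted p between 0.051 and 0.24) and with DESeq2 (adjusted p = 0.075).

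Of 12 further sensors and adaptors, 5 rose at E15.5 and 8 at E17.5, with 0 fallen (2 fell at an unadjusted p under 0.05 at E15.5, and 0 at E17.5). Among all genes 23.2% rose at E15.5 and 26.7% at E17.5. Ifi204, a sensor of DNA, rose by 0.91 ± 0.16 and 2.04 ± 0.16, Tlr7, a receptor for single-stranded RNA, by 1.41 ± 0.22 and 2.02 ± 0.21, and Tlr9, a receptor for DNA, by 0.99 ± 0.25 and 1.91 ± 0.24. Sting1, the adaptor for cytosolic DNA, rose by 0.72 ± 0.14 and 1.28 ± 0.14, and Ticam1, the adaptor of Tlr3, by 0.61 ± 0.11 and 0.46 ± 0.11. At E15.5 Tlr9 did not pass when control replicate 2 was left out (0.84, adjusted p = 0.054). Tlr7 and Tlr9 are well known from immune cells. Macrophage, dermal fibroblast and endothelial markers were all higher in the same libraries, and the part of any cell type in these rises was not tested.

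Of 10 brakes on the pathway, 7 rose at E15.5 and 8 at E17.5, with 0 fallen (1 at an unadjusted p under 0.05 at each stage). The shares of all genes that rose were 23.2% and 26.7%. Samhd1, which degrades nucleotides, rose by 0.53 ± 0.12 and 1.09 ± 0.12, and Trex1, a DNase that removes stray DNA, by 0.46 ± 0.15 and 0.73 ± 0.15. The phosphatase gene Ptpn6 rose by 0.48 ± 0.13 and 0.74 ± 0.13, Nlrc5 by 0.83 ± 0.29 and 1.63 ± 0.28, and Socs3, an inhibitor of JAK kinases, by 0.36 ± 0.13 and 0.64 ± 0.12. At E15.5 these smaller calls were fragile: Nlrc5 and Socs3 did not pass without any 1 of the 4 E15.5 libraries (adjusted p between 0.053 and 0.18), Trex1 did not without control replicate 1, control replicate 2 or knockout replicate 2, and Ptpn6 did not without control replicate 2 or knockout replicate 1. Without either E17.5 knockout library, Socs3 did not pass at E15.5 either.

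A further 50 interferon-stimulated genes outside the list were drawn up by hand, of which 46 were tested. This list too was chosen with earlier results of these data known, so its direction is not independent evidence. At E15.5, 37 rose and 1 fell, with a median of 1.10, against 23.2% and 22.3% of all genes. At E17.5, 41 rose and 0 fell, with 0 at an unadjusted p under 0.05 and a median of 1.81, against 26.7% of all genes in each direction. Ube2l6, the conjugating enzyme for ISG15, stood at 20.6 and 14.6 CPM in E15.5 controls, 114 and 72.5 in E15.5 knockouts, 10.9 and 10.8 in E17.5 controls, and 75.5 and 78.3 in E17.5 knockouts, and rose by 2.41 ± 0.21 and 2.82 ± 0.21. Trim30a (1.47 and 1.92), the immunity-related GTPase gene Igtp (1.22 and 1.70), Gbp7 (1.17 and 1.76) and Slfn5 (0.96 and 1.57) rose at both stages. Ifitm1, close to Ifitm3 on chromosome 7, did not pass at E15.5 (0.32 ± 0.14; 0.51 and past the test without control replicate 2) and rose at E17.5 (1.71 ± 0.14). Tor3a, an ATPase gene of the endoplasmic reticulum, was the 1 that fell at E15.5 (-0.85 ± 0.13); at E17.5 it was 0.31 ± 0.13 and did not pass (adjusted p = 0.054).

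Of the 29 members with a window, the 14 with the response-element letters had a median log2 fold change of 1.41 at E15.5 and 2.11 at E17.5. Members with a window but no match had 0.87 and 1.57, and 10 members had no window. These medians overlap widely gene by gene: Rsad2, with 1 match, had the largest E15.5 rise, and Stat2, with 1 match, did not pass at E15.5. Isg15, with 3 overlapping matches, rose 2.92-fold and 5.19-fold, close to Oas1a with 2 (3.09-fold and 5.12-fold). Another string searched, TTCNNNGAA, stood in 6 of the 32 member windows (18.8%, against 8.3% of all windows). For it the medians ran the other way. The 6 members with it had 1.02 and 1.48, and members with a window but without it 1.25 and 2.04.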

How the data were processed

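The deposited files give, for each of 8 libraries, the number of reads on each RefSeq transcript, as unnormalized integer counts. Per the series design text and the submitters' processing notes, the authors aligned reads to mm10 with TopHat2 and counted them with HOMER; the strand setting and the treatment of reads with several matches are not given. Libraries were grouped by the labels' stage and genotype. Of 30521 transcripts, 29908 were named from RefSeq GRCm38.p6 and 182 from GENCODE M21; the 431 unnamed held 2.08% of counts and were left out. One transcript, that with the largest total, represented each gene, and tables joining libraries held the same counts and were not used. Tests used edgeR 4.0.16 in R 4.3.3 on these counts (filterByExpr, TMM, quasi-likelihood fit with 4 group means, Benjamini-Hochberg over 16342 genes, threshold 0.05). Fold changes are log2 values ± SE, the SE being the absolute value over the square root of F. With 2 libraries a group, the smallest p of an exact two-sided permutation test is 0.333, and no such test was run. The edgeR fit was tried on simulated counts with changes planted only in the E15.5 knockout group, so recovery was checked for that comparison alone. Alternatives were RLE size factors, library totals alone, DESeq2 1.42.0, limma-voom (limma 3.58.1), other filters on low counts, summed transcripts, a replicate block, fits of only the groups compared, each library left out, and, added after the data were seen, a term for sex. The members, the lists of 179 other genes (173 found) and the rule for naming genes were chosen with earlier results of these data known. By that rule every member is named, with up to 4 called genes of each pathway list with the smallest adjusted p in each knockout comparison, plus Irf1 and Ifnar1; 1 further gene under this rule is not reported here. Precision follows depth: the least abundant members had under 20 counts in some control libraries.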

Additional observations from a re-analysis of the deposited data

Results flagged for a closer look

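The knockout effect differed between the stages, by the test of the difference itself (edgeR, E17.5 minus E15.5 on the log2 scale), for 7 members. They were Mx1 at 2.52, Dhx58 at 1.32, Gbp2 at 1.32, Ifih1 at 1.12, Stat2 at 0.90, Ifitm3 at 0.82 and Dtx3l at 0.81. Of the 8 fits that each left out 1 library, 4 kept the calls of Mx1 and of Stat2, 3 that of Dhx58, 2 that of Ifih1, and 1 each those of Dtx3l, Gbp2 and Ifitm3.

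Among the other listed genes of the pathway the difference passed for Ifitm1 at 1.39, Tor3a at 1.16, Ifi204 at 1.13, Parp10 at 0.94, Irf5 at 0.89 and Shisa5 at 0.69. Ifitm1, a relative of Ifitm3, kept the call in all 8 fits that left out a library (adjusted p from 0.0025 to 0.011), as did Tor3a (from 0.0083 to 0.024). Ifi204 kept it in 5 and Shisa5 in 3, while Irf5 and Parp10 kept it in 0 (adjusted p from 0.064 to 0.16 and from 0.059 to 0.12). Of the 12 tested macrophage and Langerhans markers, 4 passed the same test upward in these libraries, against 1.88% of all genes. The part of these markers' cells in these differences was not tested.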

How the results depend on the processing

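The E15.5 count of 35 risen members was between 33 and 35 and the E17.5 count of 39 between 38 and 39 under every alternative that left out no replicate. Leaving out each library in turn gave 29 to 36 at E15.5, 38 to 39 at E17.5 and 27 to 33 for the stage difference in knockouts. With library totals alone the members passing the test of the difference numbered 2, and without 1 library 0 to 6; DESeq2 gave 10. From E15.5 to E17.5 in controls the 7 risen members became 16 with library totals, 11 with DESeq2, 4 with limma-voom, 13 with no low-count filter, 14 with a replicate block, 4 with a term for sex and 2 to 13 without 1 library; the 1 fallen member became 0 with limma-voom and with the term for sex, and 0 to 1 without 1 library. Replicate numbers are shared between groups, but the labels do not say that they mark a litter or day, and the deviations of same-numbered libraries correlated at 0.10 at E15.5 and -0.04 at E17.5; the block gave 35, 39 and 7 for the knockout comparisons and their difference, and 34 in knockouts. 

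Over all genes, the difference upward (308) was 142 with library totals, 509 with DESeq2 and 122 to 353 without 1 library, and downward (403) 655 with totals and 255 to 392. In controls the stage calls upward (515) were 1486 with totals, 254 with the term for sex and 176 to 521, and downward (1259) 762, 745 and 490 to 1255. In knockouts those upward (1012) were 594 with the term for sex and 451 to 1075, and downward (1130) 709 to 1181. 

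Directions that turned belonged to changes that did not pass the test with all libraries and TMM scaling. With library totals the difference was -0.0296 for Ifit2 and -0.0557 for Samd9l, and the stage difference in knockouts -0.0122 for Rsad2. Without 1 library the difference ran from -0.38 to 0.34 for Tlr3, from -0.36 to 0.87 for Ifit1, from -0.0803 to 0.50 for Ifit2 and from -0.71 to 0.11 for Ifi27l2a. The E15.5 change then ran from -0.21 to 0.66 for Mx1 and from -0.20 to 1.29 for Ifi44, and the stage change in knockouts from -0.20 to 0.38 for Ifit2 and from -0.0581 to 0.0692 for Rsad2. The cause of these shifts was not tested. A fit of only the groups compared could not be made for the difference, which needs all 4 groups. With 2 libraries a group and few counts in controls, depth limits low members such as Mx2, Oas3, Zbp1, Oasl1 and Ifit1.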
